A study of Macaca mulatta with 24 samples.

Results

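The enzymes that chemically modify drugs, dietary compounds, bile acids and steroids in the gut wall were followed in the colon of rhesus macaques after total-body irradiation. Members were all genes on the array whose symbol begins with CYP and a digit (CYP51A1 left out), UGT1, UGT2, SULT, GSTA, GSTM, GSTO, GSTP, GSTT, GSTK or MGST: 62 genes, measured by 93 of the 43603 probes and set among 14491 genes with a name. Each gene was represented by its brightest probe. Of the 62, 57 could be tested; CYP17A1, CYP19A1, CYP4F22, SULT1E1 and SULT2A1 were well above background on 0 or 1 of the 24 arrays and have no tested value.

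RNA of young adult male animals was hybridised 1 animal to an array, without pooling, from a short length of colon, so the values describe whole gut wall and not an isolated cell type. The 4 controls were sham-irradiated and labelled day 4, and they served every comparison. Animals in the other groups received 1 uniform whole-body exposure to cobalt-60 gamma rays: 6.7 Gy or 7.4 Gy, with 4 animals a dose on day 4, 4 on day 7 and 2 on day 12. No drug, diet or genotype was varied, so the enzymes were measured without a test compound.

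Phase I enzymes, mainly the cytochromes P450 (CYP), add or expose a reactive group on a lipid-soluble molecule. Phase II enzymes then attach a water-soluble one: glucuronic acid by the UDP-glucuronosyltransferases (UGT), sulfate by the sulfotransferases (SULT) and glutathione by the glutathione S-transferases (GST). In colon these enzymes sit largely in the absorptive cells at the mucosal surface, and ligand-activated receptors such as AHR, PXR and FXR set many of their transcript levels.

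A value below is the log2 signal of a probe relative to the 75th percentile of its array. A gene was called where limma gave an adjusted p under 0.05 (Benjamini-Hochberg over all probes) together with at least a 2-fold change. Between 66.7% and 85.0% of spots per array were well above background. Signals of different probes cannot be ranked against each other, because probes differ in efficiency. CYP4F8 and CYP4F12, the UGT2B genes, the CYP3A genes and the SULT1A genes are near copies of each other, and a probe of one can take up transcript of another. UGT1A1 shares most of its transcript with the other UGT1A forms. Several names are those of the array design and have changed since: the accession behind CYP2C75 now carries the symbol CYP2C18, and those behind CYP2C18 and CYP2D6 carry only a LOC number.

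The colon identity genes CDX2, CA1, AQP8, SLC26A3 and MUC2 were all measured well above background in the controls. On day 4 the tissue make-up measured with marker genes differed from the controls. Of 12 absorptive colonocyte markers tested, 8 were called lower after 6.7 Gy and 10 after 7.4 Gy, beside 1.98% and 3.97% of all genes. Their summed linear signal was 507 to 805 times the 75th percentile in the controls. On day 4 it was 123 to 304 after 6.7 Gy and 47.1 to 249 after 7.4 Gy, and on day 12 588 to 693 and 597 to 614. Among them CA4 read 4.51 in the controls and 5.39 and 4.44 on day 4, and MS4A12 3.77, 3.54 and 3.52. Goblet markers summed to 344 to 454 in the controls and to 168 to 297 and 55.0 to 304 on day 4. Fibroblast markers summed to 105 to 253, then 155 to 192 and 238 to 341. The 8 epithelial markers summed to 690 to 889 in the controls and to 334 to 566 and 350 to 429 on day 4. They did not move alike. LGALS4, which gave the largest signal, had a mean of 8.89 in the controls and 7.89 and 7.38 on day 4. KRT19 read 7.42, 6.98 and 7.05, and KRT18, at 5.33, 5.36 and 5.43, was not lower. Of the neutrophil markers 3 were tested, MPO not being above the filter. They summed to 0.589 to 0.704 in the controls and to 0.605 to 4.15 and 0.940 to 10.3 on day 4. After 7.4 Gy 2 of 3 were called higher, beside 4.26% of all genes. The 2 called were S100A8 and S100A9. The third, CSF3R, did not rise: its mean was -1.78 in the controls and -2.12 and -2.20 on day 4. Fewer cells of a type and less RNA per cell cannot be told apart in whole tissue, and the part of the marker shifts in the results below was not tested. The 4 control arrays all lay in position 1 of their slides and the 4 arrays of 7.4 Gy on day 4 in position 2. Day 7 and day 12 arrays lay in positions 3 and 4, so position and group cannot be told apart there.

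On day 4 the enzyme transcripts were mostly lower than in the controls, and more so after 7.4 Gy. After 6.7 Gy, 4 of 57 tested members were called, or 7.02%, against 4.32% of the 13436 tested genes (2.34% higher and 1.98% lower): CYP2D6, CYP4F12 and CYP4F8 fell and GSTM1 rose. After 7.4 Gy, 10 of 57 were called, or 17.5% against 8.24%, and all 10 fell: CYP2D6, CYP4F12, CYP4F8, UGT1A1, UGT2A3, UGT2B15, UGT2B33, SULT1A2, SULT1B1 and MGST3. Among all genes, 4.26% rose and 3.97% fell in that comparison. Under spike-in scaling the members called split into 3 higher and 3 lower after 6.7 Gy and 2 higher and 8 lower after 7.4 Gy, while the median of all genes moved from -0.04 to 0.18 and from -0.02 to 0.27. The median change of the tested members was -0.30 after 6.7 Gy and -0.45 after 7.4 Gy, beside -0.04 and -0.02 for all genes. The arrays of a group did not overlap the controls for 12 of 57 members after 6.7 Gy and 21 of 57 after 7.4 Gy, beside 17.9% and 26.2% of all genes. The 75th percentile itself was 558 to 756 in the controls and 823 to 971 on day 4 after 7.4 Gy. On days 7 and 12 no member was called against the controls at either dose.

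**Figure D1:**
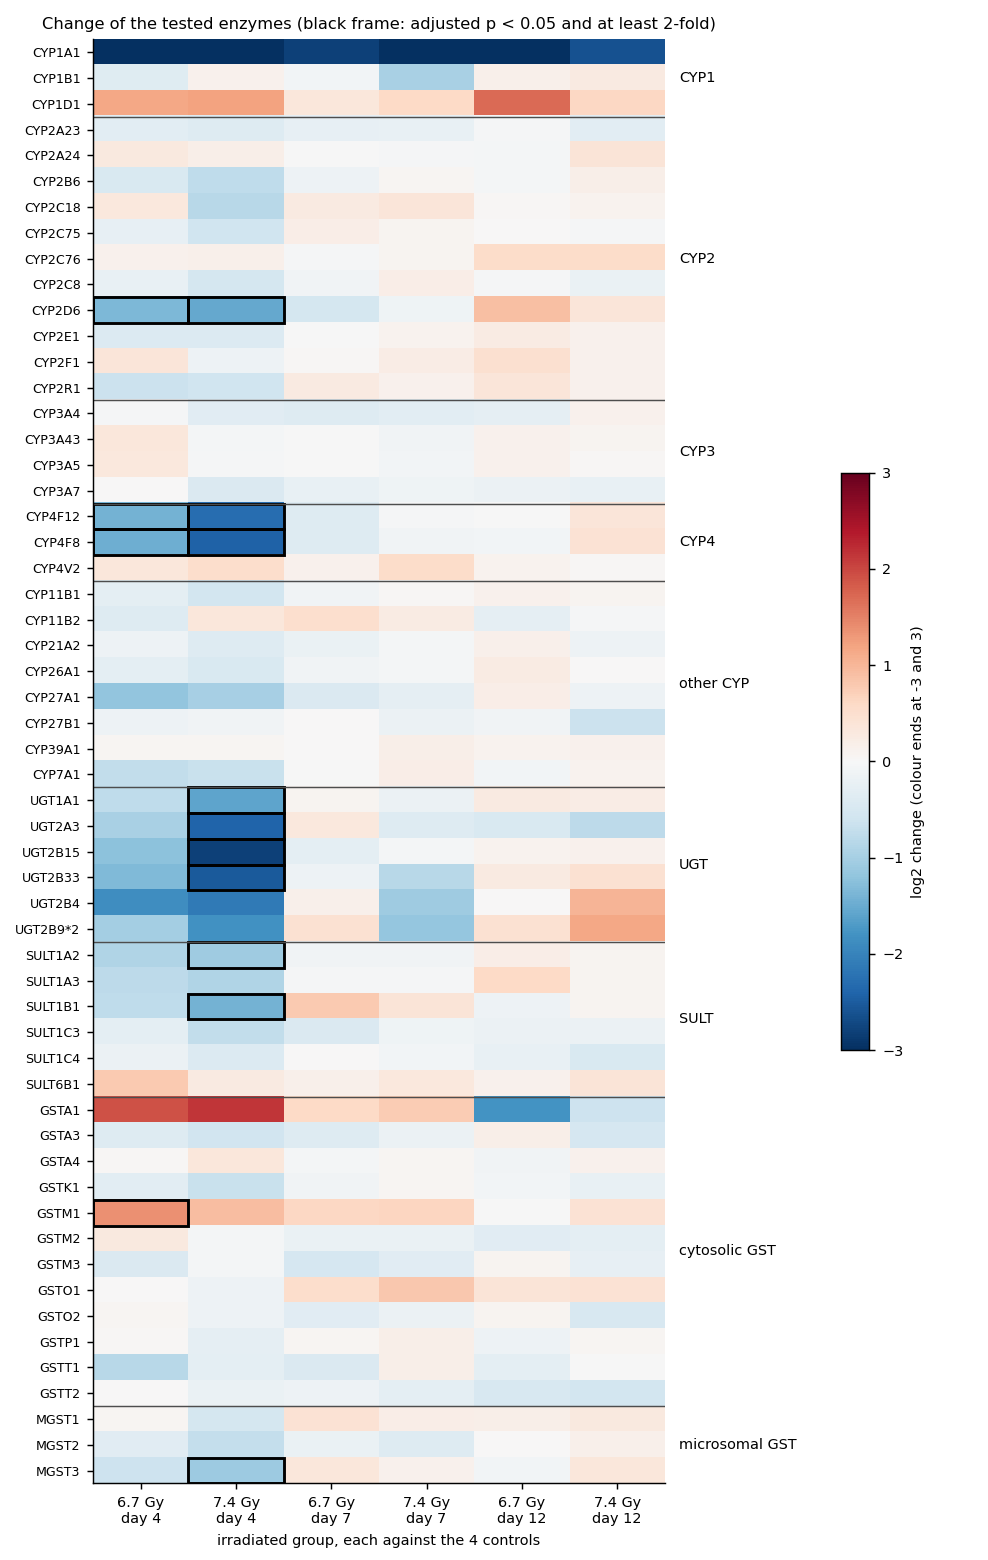
Log2 change of 56 of the 57 tested enzymes (rows, by family) in the 6 irradiated groups against the 4 controls (columns). Black frames mark called changes, all of which lie in the 2 day 4 columns, 4 after 6.7 Gy and 10 after 7.4 Gy; CYP1A1, dark throughout, carries no frame.

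Among the phase I enzymes, CYP4F8 and CYP4F12 fell at both doses. CYP4F8, a fatty acid and prostaglandin hydroxylase, read 1.61, 1.41, 1.4 and 1.47 in the controls. Its day 4 values were -0.12, -0.37, 0.18 and 0.39 after 6.7 Gy and -0.98, -0.59, -1.16 and -1.06 after 7.4 Gy. All 8 irradiated arrays of day 4 lay below every control, and the 2 dose groups did not overlap either. The fall was 2.75-fold after 6.7 Gy (log2 change -1.46 ± 0.18 SE, adjusted p = 0.00017) and 5.36-fold after 7.4 Gy (-2.42 ± 0.18, adjusted p = 1.3e-07).

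CYP4F12, an intestinal hydroxylase of fatty acids and some antihistamines, took the same course. It read 2.73, 2.0, 2.07 and 2.19 in the controls, 0.65, 0.49, 0.91 and 1.27 on day 4 after 6.7 Gy, and -0.21, 0.73, -0.51 and -0.17 after 7.4 Gy. No day 4 array reached a control. It fell 2.67-fold after 6.7 Gy (-1.42 ± 0.24, adjusted p = 0.0021) and 4.87-fold after 7.4 Gy (-2.29 ± 0.24, adjusted p = 1.3e-05). CYP4V2, a fatty acid hydroxylase and the other CYP4 member tested, changed by 0.34 and 0.53 and was not called.

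CYP2D6, which oxidises many amine drugs, read -1.0, -1.87, -1.43 and -1.28 in the controls, -2.56, -2.60, -3.0 and -2.81 on day 4 after 6.7 Gy and -3.06, -2.85, -2.54 and -3.31 after 7.4 Gy. The groups did not overlap. It fell 2.54-fold (-1.35 ± 0.34, adjusted p = 0.018) and 2.92-fold (-1.55 ± 0.34, adjusted p = 0.0037). With the array position as a block, neither CYP2D6 call held, and the 6.7 Gy call was also lost without control replicate 1. It was the 1 called member of 12 in the CYP2 family, whose median was -0.28 after 6.7 Gy and -0.56 after 7.4 Gy. CYP2C18 and CYP2C75 passed the adjusted p after 7.4 Gy with changes of -0.82 and -0.59, short of 2-fold.

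The CYP3 family, which includes the main drug-oxidising enzymes of human gut, stayed close to the controls. CYP3A4, a target of the pregnane X receptor, read 1.35, 1.35, 1.39 and 1.54 in the controls, 1.06, 2.29, 1.39 and 0.78 on day 4 after 6.7 Gy and 1.14, 1.54, 0.73 and 0.85 after 7.4 Gy. The irradiated arrays spread more widely than the controls and overlapped them at both doses. Its changes were -0.02 ± 0.32 (adjusted p = 0.97) and -0.34 ± 0.32 (adjusted p = 0.50). CYP3A5, the brightest CYP3 probe, changed by 0.33 and -0.03. Over all 6 irradiated groups the 4 CYP3 members ranged from -0.43 to 0.35, and none was called in any of the 11 comparisons.

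Outside these families, CYP27A1, the sterol 27-hydroxylase, read 3.67, 4.66, 3.91 and 3.70 in the controls, 2.47, 2.83, 3.14 and 2.75 on day 4 after 6.7 Gy and 3.18, 3.39, 2.38 and 2.99 after 7.4 Gy. The day 4 arrays lay below the controls without overlap, but the changes of -1.19 ± 0.51 and -1.0 ± 0.51 were not called (adjusted p = 0.15 and 0.18). CYP2R1, a vitamin D 25-hydroxylase, changed by -0.65 and -0.59 (adjusted p = 0.054 and 0.052). CYP2B6, a target of the constitutive androstane receptor, was dim and changed by -0.47 and -0.77 (adjusted p = 0.33 and 0.067). The brighter probe of CYP26A1, a retinoic acid hydroxylase, changed by -0.30 and -0.45 and was not called, while its second probe, above background on 22 arrays, was called after 7.4 Gy (-2.40 ± 0.67, adjusted p = 0.017).

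CYP1A1, the oxidase of polycyclic aromatic compounds that AHR induces, showed the widest differences of all members, with no call. It read 3.11, 1.38, -0.63 and 2.42 in the controls. Day 4 gave -2.65, -5.85, -2.03 and -0.38 after 6.7 Gy and 0.10, -1.30, -0.95 and -6.07 after 7.4 Gy. Day 7 gave -0.66, -0.52, -0.82 and -2.95 after 6.7 Gy and -7.4, -3.61, 0.48 and -4.89 after 7.4 Gy. On day 12 it read -2.03 after 6.7 Gy, with the other array's spot left out as an outlier, and -1.82 and -0.25 after 7.4 Gy. Control replicates 1, 2 and 4 were above every irradiated array, while control replicate 3 lay among them.

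The group means of CYP1A1 were lower than the control mean by 2.60 to 5.42 on the log2 scale, with standard errors of 1.51 to 2.38 and adjusted p from 0.077 to 0.88. A second CYP1A1 probe read -1.21, -2.41, -4.28 and -1.81 in the controls, where the same 3 replicates lay above every irradiated array, with day 4 changes of -3.25 ± 1.1 and -3.09 ± 1.1 (adjusted p = 0.065 and 0.052). CYP1A1 was called on day 4 after 6.7 Gy with normexp background correction, with the array position as a block, as the mean of its probes and with the unadjusted methods' t-test, and on day 4 after 7.4 Gy with normexp (-2.96, adjusted p = 0.035). The mean of all 6 irradiated groups against the controls, a comparison added after these values were seen, gave -3.73 ± 1.20 (unadjusted p = 0.0061, adjusted p = 0.13) for the brighter probe and -3.04 ± 0.86 (adjusted p = 0.083) for the other. With normexp the brighter probe gave -3.12 (adjusted p = 0.045) in this comparison, past the threshold, as it was with the unadjusted t-test. As the comparison was chosen from these values, its p-values do not count as a test. CYP1B1, another AHR target, changed by -0.36 and 0.12 on day 4 and by at most 0.97 in size in any group (adjusted p = 0.40 on day 7 after 7.4 Gy). AHR itself changed by 0.36 ± 0.18 and 0.23 ± 0.18 on day 4, and was not called.

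**Figure D2:**
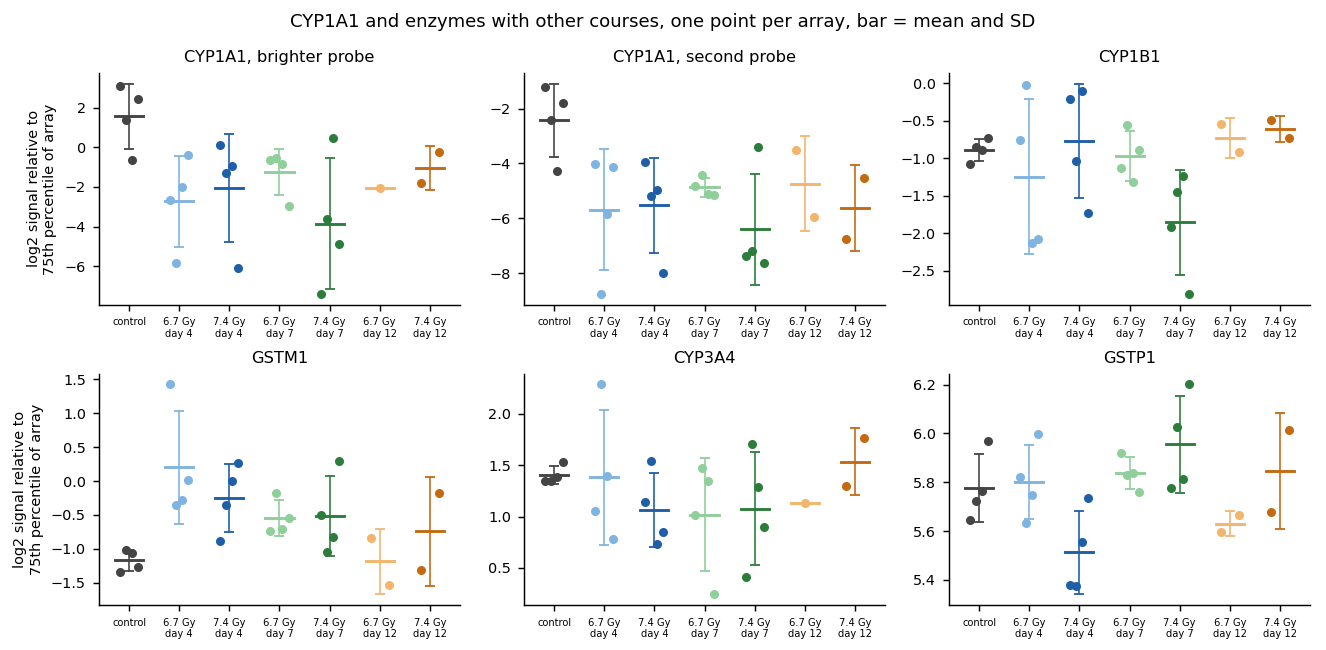
Log2 signal relative to the array's 75th percentile (vertical axis, a separate scale in each panel) in each array of the 7 groups; bars give the mean and SD. CYP1A1 is high in 3 of 4 controls on both probes and spread over several log2 units after irradiation, GSTM1 lies higher on day 4, and CYP3A4 and GSTP1 overlap the controls in nearly every group.

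Among the phase II enzymes the UGTs changed most as a family. The group means of all 6 tested members were below the control means on day 4 at both doses, though arrays of some overlapped. The median change was -1.13 after 6.7 Gy and -2.26 after 7.4 Gy, with 0 of 6 called after 6.7 Gy and 4 of 6 after 7.4 Gy. UGT2B15, which conjugates androgens and many drugs, read 3.89, 2.67, 4.10 and 3.12 in the controls, 1.99, 1.14, 2.62 and 3.08 on day 4 after 6.7 Gy and 1.04, 1.49, -1.19 and 1.23 after 7.4 Gy. Every 7.4 Gy array was below every control, whereas the 6.7 Gy arrays overlapped the controls. It fell 6.97-fold after 7.4 Gy (-2.80 ± 0.55, adjusted p = 0.0016), and the value after 6.7 Gy was -1.24 ± 0.55 (adjusted p = 0.15). A second probe gave -2.93 ± 0.55 after 7.4 Gy (adjusted p = 0.0012).

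UGT2B33, a rhesus UGT2B enzyme, read 0.09, 0.43, 1.32 and -0.11 in the controls and -2.16, -0.82, -3.33 and -2.02 on day 4 after 7.4 Gy, again without overlap. It fell 5.70-fold (-2.51 ± 0.53, adjusted p = 0.0029), beside -1.33 ± 0.53 after 6.7 Gy (adjusted p = 0.12). A second, dimmer probe did overlap: it read -4.87, -2.81, -1.78 and -3.87 in the controls. After 7.4 Gy on day 4 that probe read -7.83, -3.36, -5.44 and -7.58. UGT2A3, which conjugates bile acids, read -1.11, -0.55, 0.50 and -0.56 in the controls and -1.63, -1.67, -4.54 and -3.50 after 7.4 Gy, a 5.30-fold fall (-2.41 ± 0.64, adjusted p = 0.013). That call was lost without replicate 3 of the 7.4 Gy group. On day 4 after 6.7 Gy it changed by -0.98 ± 0.64 (adjusted p = 0.35).

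UGT1A1, the bilirubin-conjugating enzyme, read 3.73, 3.41, 3.01 and 3.76 in the controls, 3.04, 2.47, 2.79 and 2.58 on day 4 after 6.7 Gy and 1.46, 2.53, 1.49 and 2.11 after 7.4 Gy. The 7.4 Gy arrays lay below all controls. It fell 2.99-fold after 7.4 Gy (-1.58 ± 0.30, adjusted p = 0.0012), a call not held with the array position as a block, and changed by -0.76 ± 0.30 after 6.7 Gy (adjusted p = 0.11). UGT2B4, a bile acid and steroid conjugator, was near background: it was well above it on 2 of 4 control arrays, 0 of 4 after 6.7 Gy and 1 of 4 after 7.4 Gy on day 4. Its controls spread from -6.29 to -3.98, and it was not called after 6.7 Gy (adjusted p = 0.12), so no fold is given. UGT2B9*2, another rhesus UGT2B form, changed by -1.02 ± 0.79 and -1.81 ± 0.79 and was not called, while its dimmer second probe gave -0.68 and -0.87 (adjusted p = 0.022 and 0.0024), under 2-fold.

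**Figure D3:**
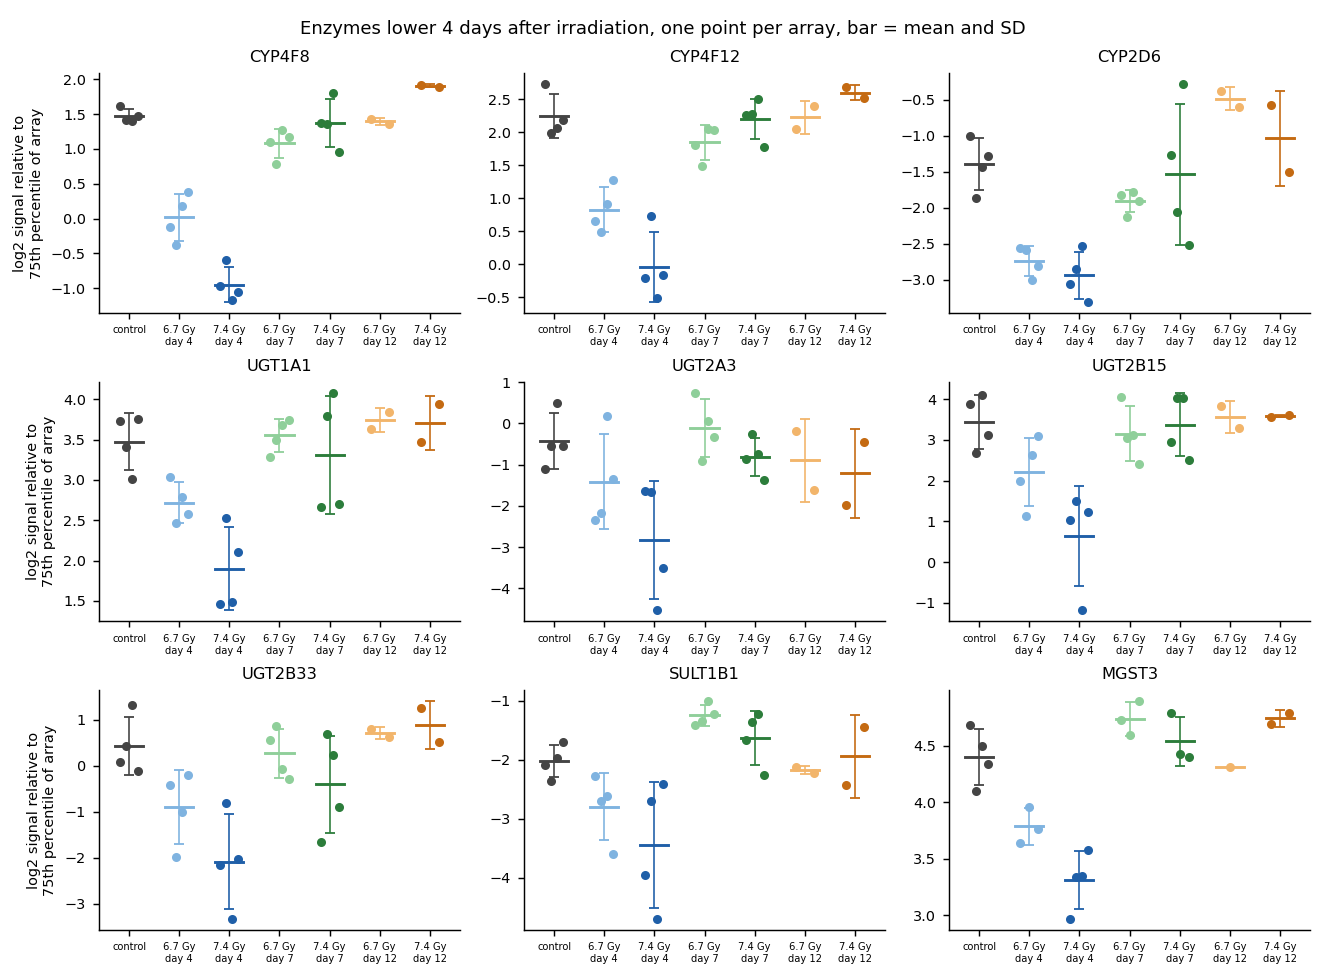
Log2 signal relative to the array's 75th percentile (vertical axis, a separate scale in each panel) in each array of the 7 groups for 9 of the 10 enzymes that fell on day 4 after 7.4 Gy; bars give the mean and SD. The 4 arrays of 7.4 Gy on day 4 lie below the 4 controls in all 9 panels, and day 12 arrays overlap the controls or lie near them.

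Of the 6 SULT genes tested, 2 fell after 7.4 Gy. SULT1B1, which sulfates thyroid hormone and phenols, read -2.08, -2.35, -1.97 and -1.70 in the controls and -3.95, -2.70, -4.70 and -2.42 on day 4 after 7.4 Gy. These 2 groups did not overlap, though the highest irradiated array was close to the lowest control. The fall was 2.67-fold (-1.42 ± 0.39, adjusted p = 0.016) and was lost without replicate 1 or replicate 3 of the 7.4 Gy group, and with the array position as a block. SULT1A2, a phenol sulfotransferase, read 3.58, 3.47, 3.84 and 3.93 in the controls and 2.55, 2.90, 2.24 and 2.91 after 7.4 Gy. It fell 2.08-fold (-1.06 ± 0.24, adjusted p = 0.0045), just inside the 2-fold limit, and the call was lost under median or spike-in scaling, with the position block, and without control replicate 4 or replicate 3 of the 7.4 Gy group. SULT1A3, which sulfates dopamine, changed by -0.79 and -0.91 (adjusted p = 0.025 and 0.0058), just outside it, and its second probe gave -1.07 after 7.4 Gy (adjusted p = 0.0028). SULT6B1 had changes of opposite sign on its 2 probes after 7.4 Gy: 0.27 on the brighter one and -1.52 on the other (adjusted p = 0.041), which was called but was above background on only 3 of 24 arrays.

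The GST genes, which conjugate electrophiles and lipid peroxides to glutathione, varied among themselves. GSTM1, a mu-class enzyme, was the 1 member called higher. It read -1.33, -1.01, -1.06 and -1.26 in the controls, 1.43, -0.35, -0.28 and 0.01 on day 4 after 6.7 Gy and -0.89, -0.36, -0.00 and 0.27 after 7.4 Gy. All 8 day 4 arrays were above the controls, as were the day 7 arrays after 6.7 Gy. The day 7 changes of 0.62 and 0.65 were not called. The rise was 2.58-fold after 6.7 Gy (1.37 ± 0.37, adjusted p = 0.024), beside 0.92 ± 0.37 after 7.4 Gy (adjusted p = 0.080). The 6.7 Gy call was lost without control replicate 1 or 4 or without replicate 1 of the 6.7 Gy group, and also with the slide as a block (1.14, adjusted p = 0.11), with only the groups compared and with the adjusted methods' t-test. Its relatives GSTM2 and GSTM3 changed by 0.28 and -0.44 after 6.7 Gy, and GSTM3 was above background on 2 arrays in all.

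GSTP1, the pi-class enzyme found in most epithelia, read 5.64, 5.72, 5.77 and 5.97 in the controls and 5.38, 5.38, 5.56 and 5.74 on day 4 after 7.4 Gy, with a change of -0.26 ± 0.13 (adjusted p = 0.15). It changed by 0.02 after 6.7 Gy. GSTA1, an alpha-class enzyme, was above background on 12 of 24 arrays and ranged from -8.20 to -1.11. Its changes of 1.91 and 2.15 on day 4 were not called. MGST3, a membrane-bound glutathione transferase and peroxidase, read 4.68, 4.10, 4.49 and 4.34 in the controls and 2.97, 3.34, 3.35 and 3.58 after 7.4 Gy, without overlap. It fell 2.13-fold (-1.09 ± 0.16, adjusted p = 0.00036), close to the 2-fold limit; without replicate 1 of the 7.4 Gy group, or under spike-in scaling, the call was lost. After 6.7 Gy, with 1 of 4 spots left out as an outlier, MGST3 changed by -0.62 ± 0.17 (adjusted p = 0.036). MGST2 and GSTK1 passed the adjusted p after 7.4 Gy with changes of -0.71 and -0.67.

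**Figure D4:**
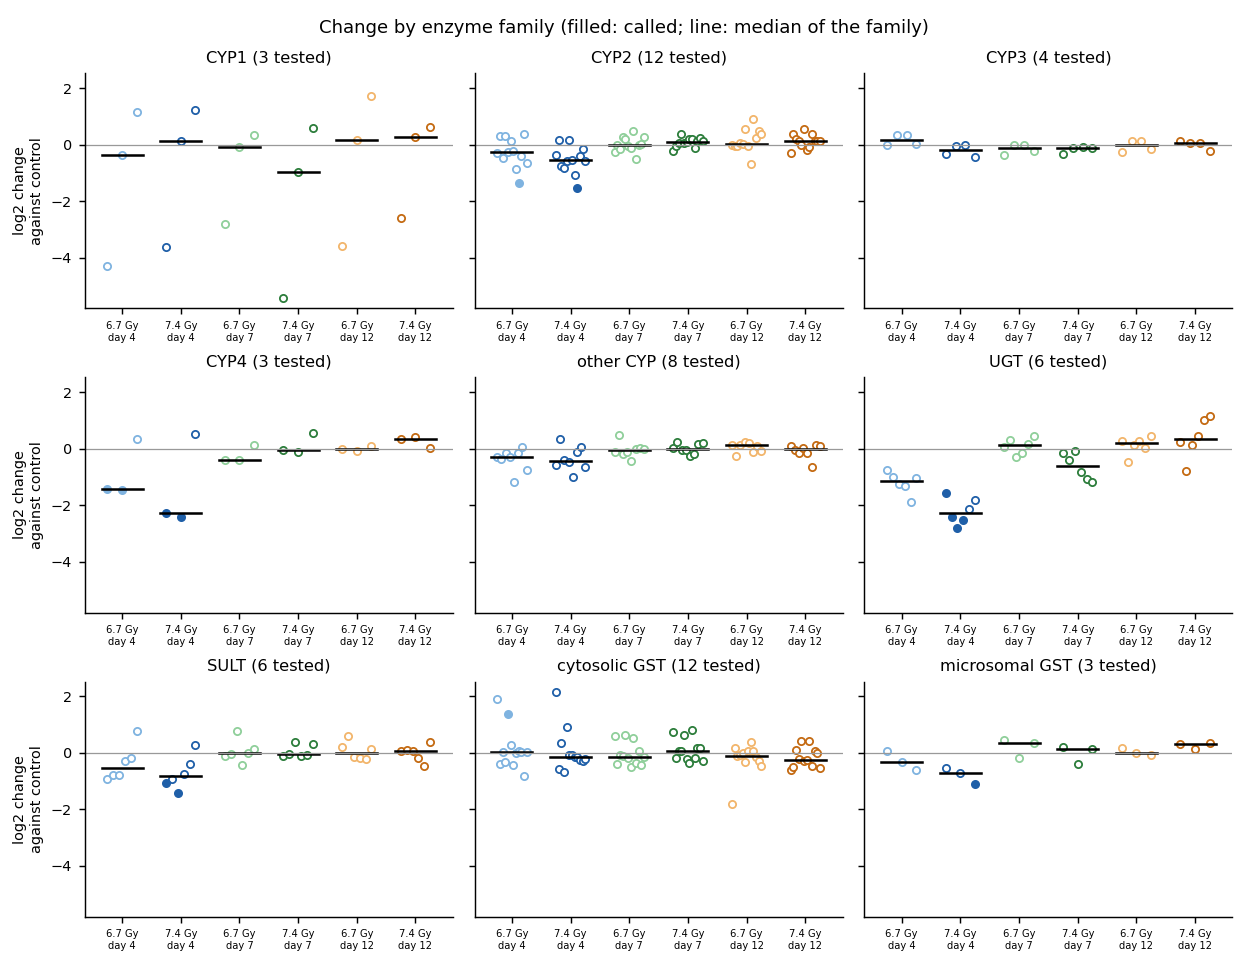
Log2 change against control (vertical axis) of each tested gene, by enzyme family and irradiated group; filled points are called, open points are not, and the line is the family median. The UGT median is -2.26 on day 4 after 7.4 Gy and 0.34 on day 12, while the CYP3 points stay between -0.43 and 0.35.

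The animals of the 7.4 Gy day 4 group were unequal. Replicate 3 held the lowest value of the 4 for 7 of the 10 enzymes that fell, including UGT2B15 at -1.19, UGT2A3 at -4.54 and SULT1B1 at -4.70. The same array had the lowest colonocyte marker sum, 47.1, and the highest neutrophil sum, 10.3, of all 24 arrays. Replicate 2, with a colonocyte sum of 249, had the highest values in its group for CYP4F12, CYP4F8, UGT1A1, UGT2B15 and UGT2B33. The other enzymes that fell differed. CYP2D6 was highest in replicate 3 (-2.54) and UGT2A3 in replicate 1 (-1.63). SULT1A2 (2.91), SULT1B1 (-2.42) and MGST3 (3.58) were highest in replicate 4. The 6.7 Gy day 4 group was mixed. Its replicate 4 had the lowest colonocyte sum of that group, 123. This array read highest there for CYP4F8 (0.39), CYP4F12 (1.27), UGT2B15 (3.08) and UGT2B33 (-0.19). It read lowest there for SULT1B1 (-3.60) and for the transporter ABCB1 (-0.59). Its epithelial marker sum was 519, in a group range of 334 to 566. Without replicate 3 of the 7.4 Gy group, 8 members were called, SULT1A2, SULT1B1 and UGT2A3 being lost and CYP2C18 gained. On the slides that also carried a control, UGT2B15 differed by -3.06 and -1.63 after 7.4 Gy, and by -1.27 and 0.41 after 6.7 Gy, where it was not called. CYP4F8 differed within slides by -2.38 and -2.07 after 7.4 Gy and by -1.43 and -1.02 after 6.7 Gy.

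The 2 doses were compared directly on each day. On day 4, 41 of 57 members were lower after 7.4 Gy than after 6.7 Gy, with a median difference of -0.25 beside -0.00 for all genes. No member was called, and 0% of all genes were. At an unadjusted p under 0.05, 14 members passed, and the methods' t-test without adjustment called 1, CYP2C18. The share of all genes at an unadjusted p is not given here or below. Such counts are therefore no result about the enzymes in particular. Leading differences were UGT2B15 at -1.56 ± 0.55 (adjusted p = 0.62), UGT2A3 at -1.42 ± 0.64 (adjusted p = 0.79) and CYP4F8 at -0.97 ± 0.18 (adjusted p = 0.11). With the array position as a block, CYP4F8 and CYP2C18 were called lower after 7.4 Gy, and CYP4F8 was also called without replicate 2 of the 6.7 Gy group. On days 7 and 12, limma called no member between doses (0% of all genes on each day), 0 members had an unadjusted p under 0.05, and the unadjusted t-test called 0 on day 7 and 1 on day 12, CYP1D1, which was near background.

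On day 7 no enzyme was called against the controls. The widest difference, that of CYP1A1, was -5.42 after 7.4 Gy and -2.81 after 6.7 Gy, and after 7.4 Gy the difference was -1.16 for UGT2B9*2 and -1.06 for UGT2B4. The 0 of 57 members called at either dose stand beside 0.387% of all genes after 6.7 Gy (0.156% higher and 0.231% lower) and 0.491% after 7.4 Gy (0.201% and 0.29%); 2 and 5 members had an unadjusted p under 0.05. The methods' t-test adjusted over all probes called 0, and without adjustment it called CYP1A1 at each dose. For 4 and 3 of the 57 members the arrays did not overlap the controls, beside 8.11% and 6.77% of all genes. CYP1A1 was also called on day 7 after 7.4 Gy in limma without replicate 3 of that group. CYP4F8 read 1.1, 0.79, 1.27 and 1.17 after 6.7 Gy, all still below the controls, and 1.38, 1.35, 1.81 and 0.96 after 7.4 Gy. Its changes were -0.39 ± 0.18 and -0.10 ± 0.18 (adjusted p = 0.49 and 0.90). UGT2B15 read 4.05, 3.04, 3.12 and 2.40 after 6.7 Gy and 2.94, 4.04, 4.03 and 2.49 after 7.4 Gy, overlapping the controls. The UGT median was 0.12 after 6.7 Gy and -0.61 after 7.4 Gy, where replicates 1 and 4 had the lowest UGT2B33 values, -1.65 and -0.90. These 2 arrays also had the lowest colonocyte sums of day 7, 286 and 169.

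On day 12 no member was called against the controls at either dose, beside 0.0149% of all genes at each (both genes lower after 6.7 Gy, 0.00744% in each direction after 7.4 Gy), and 2 members at each dose had an unadjusted p under 0.05. The adjusted t-test called 0, and the unadjusted one called CYP1D1 after 6.7 Gy. With 2 animals a group the standard errors were larger: UGT2B15 read 3.84 and 3.28 after 6.7 Gy and 3.57 and 3.60 after 7.4 Gy, a change of 0.12 ± 0.67 and 0.14 ± 0.67. CYP4F8 read 1.43 and 1.36 and then 1.92 and 1.89. The median over members was 0.02 and 0.09, beside 0.01 and -0.01 for all genes. Arrays of 9 of the 57 tested members at each dose did not overlap the controls, against 17.5% and 16.3% of all genes.

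The change over time was tested over both doses. From day 4 to day 7, 11 of 57 members rose, or 19.3% against 5.05% of all genes called (2.66% higher and 2.39% lower), and none fell. Among them were CYP2D6, CYP4F12, CYP4F8, UGT1A1, UGT2A3, UGT2B15, UGT2B33, UGT2B4, SULT1B1 and MGST3. Largest were UGT2B15 at 3.58-fold (1.84 ± 0.39, adjusted p = 0.0019), CYP4F8 at 3.23-fold (1.69 ± 0.13, adjusted p = 5.6e-07) and SULT1B1 at 3.21-fold (1.68 ± 0.28, adjusted p = 0.00032). CYP4F8 was higher on all 8 day 7 arrays than on any of the 8 day 4 arrays. UGT2B4 was lost from this list under 16 of 31 alternatives and was above background on 1 of 8 day 4 arrays. These comparisons share the day 4 arrays with those against control above.

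From day 4 to day 12, 11 members again rose and none fell, or 19.3% against 7.62% of all genes called and 3.81% called higher: CYP2D6, CYP4F12, CYP4F8, UGT1A1, UGT2B15, UGT2B33, UGT2B4, UGT2B9*2, SULT1A2, SULT1A3 and SULT1B1. UGT2B33 rose 4.88-fold (2.29 ± 0.46, adjusted p = 0.0016) and UGT2B9*2 4.66-fold (2.22 ± 0.68, adjusted p = 0.024), but a second UGT2B9*2 probe gave 0.73 ± 0.15 (adjusted p = 0.0023), under 2-fold. The fitted difference of UGT2B4 was 2.51 ± 0.66 (adjusted p = 0.0093), with 3 of 4 day 12 arrays and 1 of 8 day 4 arrays above background, so no fold is given. All 4 day 12 arrays of UGT2B33, at 0.81, 0.62, 1.25 and 0.52, lay above the 8 day 4 arrays, of which the highest was -0.19. CYP2D6 rose 4.24-fold (2.08 ± 0.29, adjusted p = 9.7e-05). UGT2B9*2 lost its call without replicate 1 of either day 12 group, UGT2B4 without replicate 1 of the 7.4 Gy group, and SULT1B1 under 12 of 27 alternatives.

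Other genes of the pathway were taken from 5 lists of regulators, partners, enzymes and transporters. Beside the day 4 counts of each list stand 4.32% of all genes called after 6.7 Gy (2.34% higher, 1.98% lower). After 7.4 Gy the share was 8.24% (4.26% higher, 3.97% lower). Of 10 regulators tested, 2 fell after 6.7 Gy (NR1H4 and CDX2) and 3 after 7.4 Gy (NR1I2, NR1H4 and CDX2), and none rose. CDX2, an intestinal identity factor, is also in the epithelial marker list. NR1H4, the bile acid receptor FXR, read 1.23, 0.59, 1.11 and 0.32 in the controls, -0.34, -1.32, -0.23 and -0.77 on day 4 after 6.7 Gy and -1.53, -0.12, -2.38 and -1.17 after 7.4 Gy. Every day 4 array was below the controls, and it fell 2.78-fold (-1.48 ± 0.41, adjusted p = 0.028) and 4.32-fold (-2.11 ± 0.41, adjusted p = 0.0015). The 6.7 Gy call was lost without control replicate 1 or 3, without replicate 2 or 4 of its own group, and with the slide or the array position as a block, and both calls were lost with the adjusted methods' t-test. NR1I2, the pregnane X receptor, fell 2.51-fold after 7.4 Gy (-1.33 ± 0.23, adjusted p = 0.00068) and changed by -0.67 ± 0.23 after 6.7 Gy (adjusted p = 0.071). NFE2L2, which drives many GST genes, changed by -0.26 and -0.15 and was not called.

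The 13 partners tested, which supply electrons, glucuronic acid, sulfate and glutathione, held no call in the comparisons with control, with medians of -0.10 and -0.34 on day 4. Of 30 other phase I enzymes, 1 rose and 1 fell after 6.7 Gy, and 3 rose and 3 fell after 7.4 Gy. Among all genes 4.32% and 8.24% were called. FMO5, a flavin-containing monooxygenase, read 1.49, 1.24, 1.38 and 1.46 in the controls and -1.92, -0.46, -1.95 and -2.89 on day 4 after 7.4 Gy, a 9.16-fold fall (-3.20 ± 0.41, adjusted p = 5.2e-05); after 6.7 Gy it fell 4.65-fold. ALDH1A2, which makes retinoic acid, rose 4.49-fold and 4.79-fold (2.17 ± 0.39 and 2.26 ± 0.39, adjusted p = 0.0029 and 0.0007). Among 13 other phase II enzymes, 1 rose and 1 fell at each dose. The gene that fell was TST, the mitochondrial rhodanese that detoxifies cyanide and sulfide, at 2.85-fold and 5.14-fold (-1.51 ± 0.27 and -2.36 ± 0.27, adjusted p = 0.0031 and 3.0e-05).

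Of 16 transporters, 5 fell and 1 rose after 6.7 Gy, and 4 fell and 1 rose after 7.4 Gy. Among all genes 1.98% and 3.97% fell and 2.34% and 4.26% rose. ABCB1, the drug efflux pump P-glycoprotein, read 3.03, 2.57, 2.62 and 2.80 in the controls, 0.97, 0.92, 1.62 and -0.59 on day 4 after 6.7 Gy and -0.32, 2.05, -0.11 and 0.63 after 7.4 Gy. All 8 day 4 arrays lay below the controls, a fall of 4.07-fold (-2.03 ± 0.46, adjusted p = 0.011) and 4.57-fold (-2.19 ± 0.46, adjusted p = 0.0028). Neither call held with the array position as a block. On day 7 all 8 arrays of ABCB1 were still below the controls, with changes of -1.37 and -1.43 that were not called (adjusted p = 0.27 and 0.20). SLC51B, a subunit of the basolateral bile acid exporter, fell 2.96-fold and 3.17-fold (-1.57 ± 0.27 and -1.66 ± 0.27, adjusted p = 0.0022 and 0.00041). SLCO4A1, an organic anion carrier, rose 3.86-fold and 5.71-fold (1.95 ± 0.42 and 2.51 ± 0.42, adjusted p = 0.0082 and 0.00053). No gene of the 5 lists was called against the controls on day 7 or day 12.

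**Figure D5:**
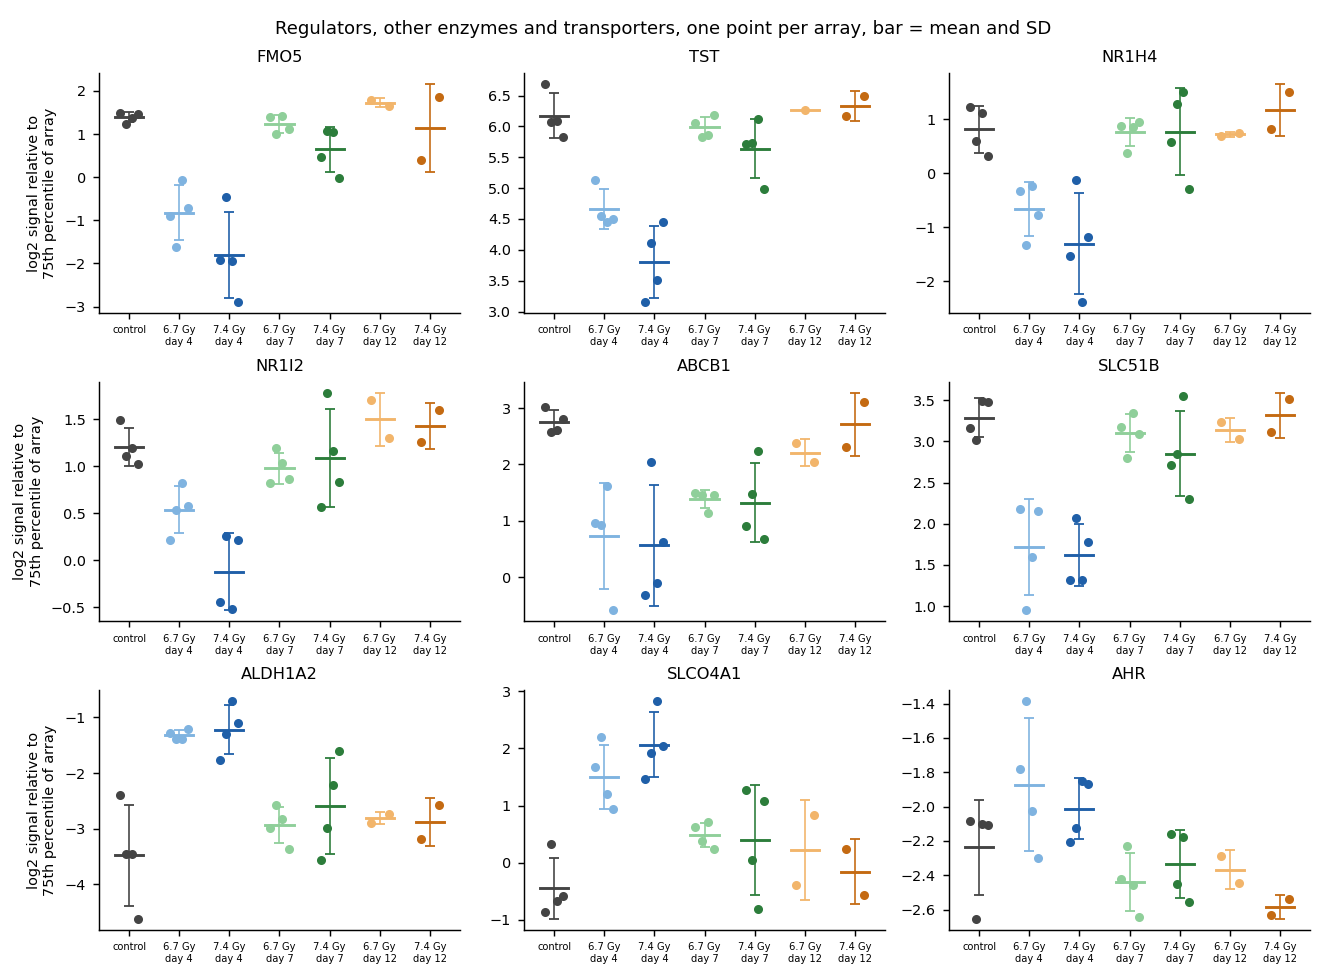
Log2 signal relative to the array's 75th percentile (vertical axis, a separate scale in each panel) in each array of the 7 groups for regulators, other enzymes and transporters of the pathway; bars give the mean and SD. FMO5, TST, NR1H4, NR1I2, ABCB1 and SLC51B lie below the controls on day 4 after 7.4 Gy, ALDH1A2 and SLCO4A1 lie above them, and AHR overlaps them.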

How the data were processed

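Colon RNA of 24 rhesus macaques was measured on 1-colour Cy3 Agilent rhesus arrays, 1 animal an array. Per the file headers, the authors extracted the intensity of each spot with Feature Extraction 11.0.1.1, with background subtracted and no normalization between arrays. The deposited normalized table holds log2 values, shifted per array and centred per probe; GeneSpring GX 11.0 is named in the submitters' processing notes. The probe layout is built on rheMac2.

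Control spots were removed and outlier spots (24 to 712 an array) set to missing, so a fit used the remaining arrays of a group. Spots of a probe were averaged, and the value was log2 processed signal minus the array's 75th percentile. A probe entered when well above background on at least 2 of 24 arrays (38229 probes, 38209 fitted). No spot was saturated. Symbols came from the series tables (18640 probes) or, by accession, from a RefSeq table (3268 more). The brightest probe stood for a gene. limma 3.58.1 under R 4.3.3 (lmFit, eBayes) was fitted with 1 mean per group to all arrays, and p-values were adjusted by Benjamini-Hochberg over all probes; the code was tested on simulated data. The 11 comparisons were each irradiated group against control, 7.4 against 6.7 Gy on each day, and days 7 and 12 against day 4. A fold is a bound where every array of one group was at background, taken from the lowest signal well above background. The labels do not give more on the animals' housing or litter, and the number of arrays limits the precision.

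Members and lists were chosen with earlier results of these data known. Named were up to 14 called members a group by size of change, the 3 highest and lowest called in the dose and time comparisons, the brightest of each family in the controls, known receptor targets, and up to 6 called genes a group of the other lists with AHR, NR1I2 and NFE2L2; others are named for a value near the threshold or a family comparison, after it was seen. Tried alternatives were the scaling (median, spike-in, quantile), normexp background correction, the deposited normalized table, outlier spots kept, other filters, only the groups compared, slide, array position, scan day or replicate number as a block, the methods' t-test, the mean of a gene's probes, no minimum fold, and each array left out. The treatment note and the sample labels differ on the last day, and the sample labels were used. A position block could not be fitted for day 7 and day 12 against control or day 4. Nucleotide sequences were not used here. The values of 1 member, which is kept in all counts and medians, are not reported here.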

Additional observations from a re-analysis of the deposited data

Results flagged for a closer look

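Of 107 sets of 4 arrays examined among the named enzymes, 5 held an array that stood apart from its group; chance gives about 1 in 20. They were CYP1A1 on day 7 after 6.7 Gy, where replicate 4 read -2.95, CYP2B6 on day 4 after 6.7 Gy, where replicate 3 read -4.28, and CYP2R1 on day 7 after 7.4 Gy, where replicate 2 read 0.82. UGT2B15 on day 4 after 7.4 Gy read -1.19 in replicate 3, the array with the lowest colonocyte marker sum, and UGT2B4 on day 4 after 6.7 Gy read -8.50 in replicate 2, a value not well above background.

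The difference from control changed between days, tested as the difference between days over both doses; of the 11 enzymes called in each of the time comparisons, those with the 3 largest fitted differences are given here. From day 4 to day 7 the log2 differences were 1.69 for CYP4F8, 1.68 for SULT1B1 and 1.84 for UGT2B15. From day 4 to day 12 they were 2.29 for UGT2B33, 2.51 for UGT2B4, which was above background on 1 of 8 day 4 arrays, and 2.22 for UGT2B9*2.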

How the results depend on the processing

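No call of a named gene changed direction under the alternatives run, and the CYP4F8 and CYP4F12 calls of day 4 were kept under all of them. After 6.7 Gy on day 4 the members called went from 4 to 8 without a minimum fold and to 8 with the unadjusted methods' t-test, and after 7.4 Gy from 10 to 6 with the adjusted t-test, which lost SULT1B1, UGT2A3, UGT2B15 and UGT2B33; it was 13 with the unadjusted t-test, 14 with the mean of a gene's probes (CYP1D1, CYP26A1, UGT2B4 and UGT2B9*2 gained) and 15 without a minimum fold. With the array position as a block it was again 10, of which 6 were among the original 10. The unadjusted t-test called 1 member where limma called 0 on day 7 after 6.7 Gy, on day 7 after 7.4 Gy, on day 12 after 6.7 Gy, and between doses on day 4 and on day 12. With the array position as a block 2 members were called between doses on day 4. Without a minimum fold 22 were called from day 4 to day 7 and 18 from day 4 to day 12, in place of 11 each. Leaving out 1 array at a time gave 2 to 5 on day 4 after 6.7 Gy (2 without control replicate 1), 8 to 12 on day 4 after 7.4 Gy, 0 to 1 on day 7 after 7.4 Gy (1 without its replicate 3), 0 to 1 between doses on day 4 (1 without replicate 2 of the 6.7 Gy group), 9 to 11 from day 4 to day 7 and 8 to 13 from day 4 to day 12. The cause was not tested.

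The labels give same-numbered samples nothing in common but the number, and their deviations correlated between -0.23 and 0.24. Deviations of arrays on 1 slide had a median correlation of 0.126 over 36 pairs, and those of other pairs -0.02 over 208. With the replicate block, 4 and 10 members were called on day 4 and 0 in the other comparisons with control and between doses. From day 4 to day 7 it called 10 (UGT2B4 lost) and from day 4 to day 12 10 (SULT1B1 and UGT2B9*2 lost, MGST3 gained).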

Other observations

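A further 15 genes have a symbol of these families only in the RefSeq table, by the accession of probes that the files list without one; 13 of them could be tested. They include CYP2J2, CYP2U1, CYP2W1, CYP4B1, CYP46A1 and SULT2B1. In the comparisons with control 1 of these genes was called, CYP7B1, an oxysterol hydroxylase, which was at least 2.08-fold higher on day 4 after 7.4 Gy (adjusted p = 0.013). Its probe was above background on 4 of 4 arrays of that group and on 0 of 4 controls, and on 8 of 24 arrays in all. CYP2J2, a fatty acid epoxygenase measured on all arrays, changed by -0.04 and 0.01. CYP2W1, a P450 of fetal colon, changed by -0.57 after 7.4 Gy (adjusted p = 0.0093), under 2-fold.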
